A study of Mus musculus with 24 samples.

Results

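The 10 genes followed here hold epithelial cells together at desmosomes or tie keratin filaments to them, and they were measured through 7 days of culture of mouse type 2 alveolar epithelial cells (AEC2s), the surfactant-producing progenitors of the alveolus. They were chosen by name, with earlier results of these data known. They are the plakins Plec, Dsp, Ppl and Evpl, the armadillo proteins Jup, Pkp1, Pkp2 and Pkp3, and the desmosomal cadherins Dsg2 and Dsc2. All 10 were among the 55421 genes of the count table, and all 10 were among the 18046 genes that passed the filter on low counts. AEC2s came from Krt8+/+ mice and from mice with a global deletion of Krt8 (Krt8-/-), and RNA was taken from fresh cells (day 0) and after 1, 3 and 7 days in culture. The study asked whether keratin 8, a filament protein of simple epithelia, shapes the transitional state that AEC2s pass through in culture. Each of the 8 groups held 3 libraries, labelled as biological replicates, 1 from each of 3 batches. A batch carries a date code that both genotypes and all days share, so that a batch number names the same code in every group. What step the code dates, the strain, the age and the number of mice per batch were not given in the sources used here.

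A desmosome is a button-like junction in which desmogleins and desmocollins, both cadherins, reach across to the neighbouring cell. Inside the cell their tails bind plakoglobin (encoded by Jup) and the plakophilins, which recruit desmoplakin (Dsp), and desmoplakin anchors the keratin filaments. Plectin (Plec) links keratins to hemidesmosomes, actin and other structures, and envoplakin (Evpl) and periplakin (Ppl) are partners best known from the cornified envelope of skin. In lung epithelium desmosomes carry mechanical load between cells, and keratin 8 pairs with keratin 18 in the filaments that attach there.

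On the mouse build GRCm38 the genes lie on 7 chromosomes. The plakins are Plec (ENSMUSG00000022565, chr15:76170974-76232574, minus strand), Dsp (ENSMUSG00000054889, chr13:38151294-38198577, plus), Ppl (ENSMUSG00000039457, chr16:5086291-5132421, minus) and Evpl (ENSMUSG00000034282, chr11:116220559-116238077, minus). The armadillo genes are Jup (ENSMUSG00000001552, chr11:100368958-100397763, minus), Pkp1 (ENSMUSG00000026413, chr1:135871395-135919207, minus), Pkp2 (ENSMUSG00000041957, chr16:16213318-16272712, plus) and Pkp3 (ENSMUSG00000054065, chr7:141078218-141090510, plus). Dsg2 (ENSMUSG00000044393) and Dsc2 (ENSMUSG00000024331) share the remaining chromosome. Exons of 3 members overlap those of another gene: Plec shares 205 bases with Parp10 on its own strand, and Dsp shares 499 bases with Gm10129 and Dsg2 shares 330 bases with Gm16090 on the opposite strand. Whether counting used strand was not stated, so reads in those stretches cannot be assigned with certainty.

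Promoter sequence was at hand for 2 of the 10 members, Dsp and Jup, a plakin and an armadillo protein of the desmosome. The 250 bases before each RefSeq start site on GRCm38.p6 are shown with CG dinucleotides in capitals, chr13:38151044-38151293 on the plus strand for Dsp and chr11:100397791-100398040 on the minus strand for Jup.
Dsp: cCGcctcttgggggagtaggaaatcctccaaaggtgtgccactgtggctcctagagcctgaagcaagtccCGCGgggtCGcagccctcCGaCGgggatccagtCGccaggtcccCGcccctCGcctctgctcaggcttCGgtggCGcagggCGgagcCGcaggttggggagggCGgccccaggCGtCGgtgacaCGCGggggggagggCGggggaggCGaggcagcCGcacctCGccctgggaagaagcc
Jup: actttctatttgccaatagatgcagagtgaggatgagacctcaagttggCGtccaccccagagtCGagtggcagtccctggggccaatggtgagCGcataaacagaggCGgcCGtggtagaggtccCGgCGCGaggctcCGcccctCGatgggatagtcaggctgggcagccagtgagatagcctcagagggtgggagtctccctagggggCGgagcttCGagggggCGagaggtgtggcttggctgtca
Dsp carried 22 CG dinucleotides and 72.4% G or C, Jup 13 and 62%, against medians of 6 and 52.4% over the 250 bases before the start site of all 32851 promoters of the table. Neither sequence, on either strand, held the letters of the GRHL motif (AACNGGTT), the AP-1 motif (TGANTCA) or the TEAD motif (GGAATG), which 2.088%, 7.808% and 14.663% of all promoters in windows reaching 50 bases past the start site held.

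The libraries held 10184439 to 19483386 counts. Krt8 stood at 523 ± 34.6 CPM (counts per 1000000 after TMM scaling; mean ± SD, n = 3) in fresh Krt8+/+ cells and at 3208 to 4030 CPM as group means in culture, and at 29.6 to 38.2 CPM in the 4 Krt8-/- groups, as the labels have it. The 7 AEC2 markers together fell from 212011 to 292886 CPM in the 6 fresh libraries to 170.4 to 258 CPM on day 7, and Sftpc alone took 11.9% to 16.9% of all counts on day 0. Basal airway markers stayed at or below 22.0 CPM in sum, with 0.221 to 2.38 CPM on day 0 and 2.98 to 17.4 CPM on day 7. As Krt8+/+ means between these days, Krt14 went from 0.381 to 4.70 CPM, Dsg3 from 0 to 2.40 CPM and Ngfr from 0.0573 to 0.916 CPM. Krt5 went from 0.144 to 0.0957 CPM and Trp63 from 0.815 CPM to no read, while Trp63 stood at 0.490 CPM in day 7 Krt8-/- cells. The club and ciliated list fell from 5788 to 19590 CPM on day 0 to 16.6 to 36.3 CPM on day 7. The fibroblast list stood at 290.1 to 975 CPM on day 0 and 797 to 2977 CPM on day 7. As Krt8+/+ means, Col1a1 went from 53.9 to 522 CPM, Col1a2 from 66.2 to 557 CPM and Pdgfra from 19.7 to 29.7 CPM. Col3a1 went from 236 to 80.3 CPM and Dcn from 211 to 18.5 CPM. The mesothelial list went from 66.3 to 205 CPM on day 0 to 879 to 2454 CPM on day 7, where almost all of it was Msln. As Krt8+/+ means, Msln went from 34.8 to 1462 CPM, while Upk3b, which marks mesothelium more strictly, went from 61.6 to 1.40 CPM. Lrrn4 went from 29.0 to 5.02 CPM and Wt1 from 2.80 to 0.748 CPM, with 75.3 and 5.76 CPM on day 3. Endothelial markers summed to at most 29.8 CPM, macrophage markers to at most 156 CPM and lymphocyte markers to at most 9.78 CPM. The part of these cells in the results was not tested, and in bulk RNA fewer cells of a type and less RNA per cell cannot be told apart.

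From fresh cells to day 7, 9 of the 10 genes rose in Krt8+/+ cells and Ppl fell (edgeR's quasi-likelihood test, adjusted p under 0.05 over all genes tested). Of all 18046 genes, 58.8% passed the same test, 28.6% higher and 30.2% lower, so a passing test was common. Their median log2 difference was 1.3, against 0 over all genes. On day 7 all 10 members had Krt8+/+ libraries that did not overlap those of day 0, which held for 65.6% of all genes. Among Krt8-/- cells 9 rose between the same days and Ppl did not pass, against 58.5% of all genes called and 28.6% called higher.

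**Figure D1:**
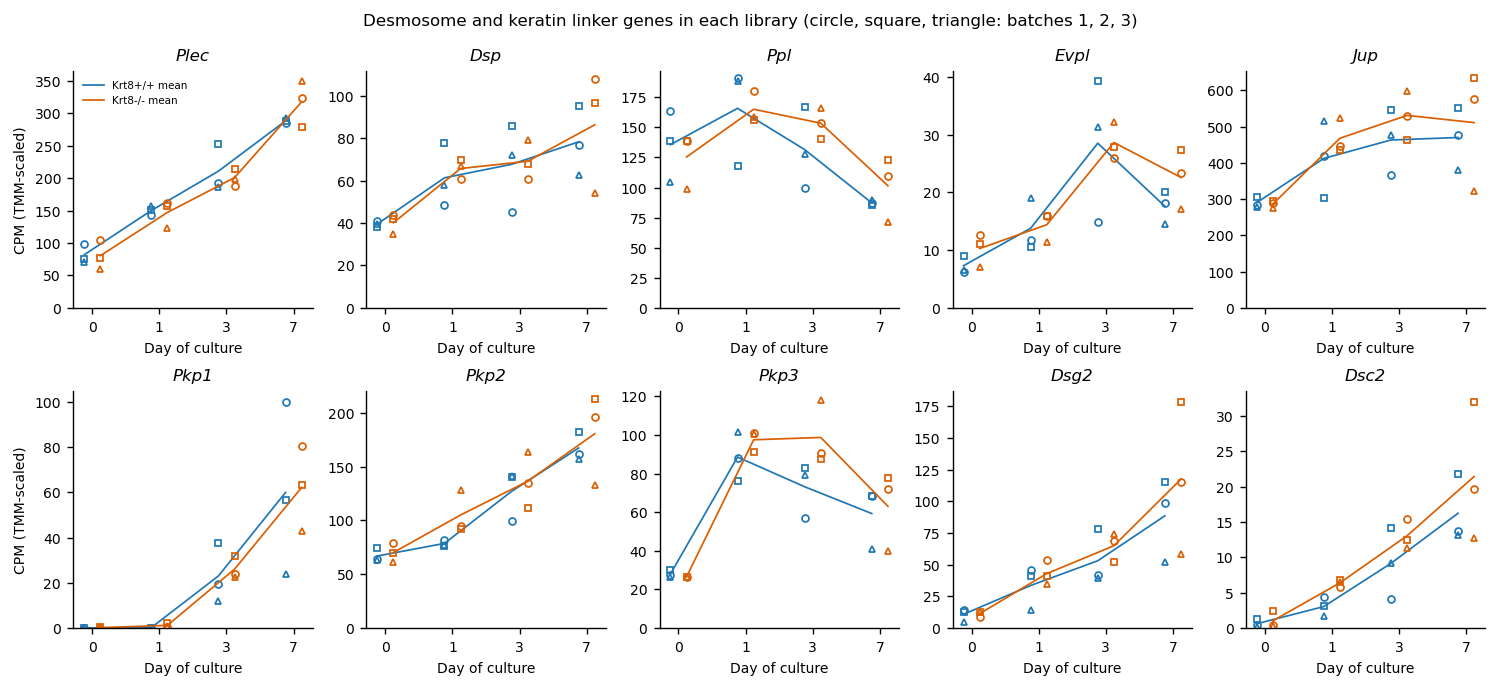
Level of each gene in CPM (linear axis from 0) against day of culture, with days drawn at even spacing. Each symbol is a library, circles, squares and triangles are batches 1, 2 and 3, and lines join the means of Krt8+/+ (blue) and Krt8-/- (orange). The other 9 genes end above their starting level and Ppl ends at 87.2 CPM in Krt8+/+ cells from 136 CPM, and the 2 genotypes run side by side.

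Among the plakins, Plec rose from day 0 to each culture day. Its levels in batches 1, 2 and 3 of Krt8+/+ cells were 98.8, 75.5 and 71.2 CPM on day 0, 143, 150.3 and 157 CPM on day 1, 192, 253 and 187 CPM on day 3, and 284, 288 and 292 CPM on day 7. No 2 neighbouring days overlapped, and the day 7 libraries lay closer to each other than those of any earlier day. The log2 difference from day 0 was 0.87 ± 0.17 (SE) on day 1, 1.36 ± 0.18 on day 3 and 1.81 ± 0.18 on day 7, with edgeR adjusted p of 2.9e-04, 1.7e-06 and 3.3e-08. Krt8-/- libraries went from 105, 76.5 and 60.0 CPM to 324, 279 and 350.2 CPM, a log2 difference of 1.98 ± 0.18 (edgeR adjusted p = 1.0e-08).

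Dsp, which anchors the filaments to the junction, rose in both genotypes. Krt8+/+ libraries held 41.0, 38.0 and 39.5 CPM on day 0, 48.3, 77.6 and 57.8 CPM on day 1, 45.3, 85.7 and 71.8 CPM on day 3, and 76.8, 95.1 and 62.7 CPM on day 7. All cultured libraries lay above all fresh ones, and batch 2 was the highest on each culture day. The day 7 difference was 0.98 ± 0.24 log2 (edgeR adjusted p = 0.00144). The day 1 call was lost without batch 2 (0.48, adjusted p = 0.224) and without batch 3 (0.67, adjusted p = 0.0629). The day 3 call was lost without batch 2 (0.62, adjusted p = 0.119). The Krt8-/- libraries of day 7 spread from 54.3 to 108 CPM, above the 34.6 to 43.9 CPM of day 0, with a log2 difference of 1.10 ± 0.24 (edgeR adjusted p = 5.1e-04). In Krt8-/- cells the day 1 call was lost without batch 2 (adjusted p = 0.0592) or batch 3 (0.0954), and the day 3 call without batch 3 (0.105).

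Ppl was the only member that ended lower. Its Krt8+/+ libraries held 164, 139 and 105 CPM on day 0, 191, 118 and 189 CPM on day 1, 99.8, 167 and 128 CPM on day 3, and 87.1, 85.2 and 89.3 CPM on day 7. Days 0, 1 and 3 overlapped, and day 7 lay below every other day. The day 7 difference was -0.64 ± 0.22 log2 (edgeR adjusted p = 0.0175), and it was lost without batch 1 (-0.48, adjusted p = 0.187) and without batch 2 (-0.54, adjusted p = 0.0833). The Krt8-/- libraries of day 7 at 109.9, 123 and 71.6 CPM overlapped the fresh ones at 139, 139 and 98.4 CPM, with a log2 difference of -0.30 ± 0.22 (edgeR adjusted p = 0.246). The call for Ppl also rested on the scaling. Scaling by library totals, without TMM factors, moved the median of all genes by 0.43 to 0.60 log2 between a culture day and day 0 in the 2 genotypes, and put Ppl at -0.19 on day 7 of Krt8+/+ cells (adjusted p = 0.436), at 0.12 on day 7 of Krt8-/- cells, and at 0.55 on day 3 of Krt8+/+ cells (adjusted p = 0.0274, where TMM gave -0.05). All day differences are therefore stated relative to the median gene.

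Evpl, the usual partner of Ppl, went the other way and was highest on day 3. Krt8+/+ libraries held 6.29, 8.99 and 6.64 CPM on day 0, 11.8, 10.6 and 19.0 CPM on day 1, 15, 39.3 and 31.3 CPM on day 3, and 18.2, 20.1 and 14.5 CPM on day 7. Day 0 lay below all culture days, while days 3 and 7 overlapped. The log2 differences from day 0 were 1.97 ± 0.31 on day 3 (edgeR adjusted p = 2.3e-05) and 1.27 ± 0.31 on day 7 (adjusted p = 0.00153). The Krt8-/- means were 10.3 ± 2.84, 14.4 ± 2.63, 28.6 ± 3.16 and 22.6 ± 5.09 CPM (SD, n = 3) on days 0, 1, 3 and 7.

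Plakoglobin (Jup), which sits in desmosomes and adherens junctions alike, was the most abundant member per length throughout. Krt8+/+ libraries held 285, 307 and 279 CPM on day 0, 418, 303 and 516 CPM on day 1, 365, 546 and 478 CPM on day 3, and 477, 552 and 381 CPM on day 7. Day 1 overlapped day 0 through batch 2, and days 3 and 7 lay above day 0. The log2 difference was 0.51 ± 0.22 on day 1 (edgeR adjusted p = 0.0547) and 0.70 ± 0.22 on day 7 (adjusted p = 0.00951), and the day 7 call was lost without batch 1 (0.67, adjusted p = 0.0976). Krt8-/- libraries held 289.7, 294 and 275 CPM on day 0 and 577, 635 and 321 CPM on day 7, where batch 3 was far below the others. The Krt8-/- difference on day 7 was 0.84 ± 0.22 log2 (edgeR adjusted p = 0.00254), and it too fell short without batch 1 (0.75, adjusted p = 0.0672).

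The 3 plakophilins, which cluster desmosomal cadherins and bind desmoplakin, each followed a course of their own. Pkp1, the plakophilin of stratified epithelia, was not detected in fresh Krt8+/+ cells: 0 reads in all 3 libraries, which allows up to 0.0883 CPM (3 reads over the group). Reads then numbered 6 over the 3 libraries on day 1, 1087 on day 3 and 2504 on day 7. By batch these were 19.4, 37.7 and 11.9 CPM on day 3 and 99.8, 56.4 and 23.7 CPM on day 7. Its pooled level was 255 times the limit of 0.0883 CPM on day 3 and 678 times on day 7. The rise over day 0 passed on both days (edgeR adjusted p = 5.1e-07 and 5.1e-08), and its Krt8+/+ libraries of day 7 spread from 23.7 to 99.8 CPM. In Krt8-/- cells reads numbered 3, all in batch 2, then 49, 1194 and 2891, and the day 7 to day 0 ratio was 769 (95% counting interval 263 to 3732). Intervals and floors on reads cover counting error only.

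Pkp2, the plakophilin of simple epithelia and heart, rose late in Krt8+/+ cells. Its libraries held 64.0, 73.9 and 62.8 CPM on day 0, 82.1, 76.2 and 77.5 CPM on day 1, 99.7, 140.4 and 141 CPM on day 3, and 162, 183 and 157 CPM on day 7. The libraries of each day lay above those of the day before it. The day 1 difference was 0.23 ± 0.18 log2 (edgeR adjusted p = 0.289), and the day 7 difference 1.32 ± 0.18 (adjusted p = 3.6e-06). Krt8-/- cells gave 0.58 ± 0.18 on day 1 (edgeR adjusted p = 0.0117), but 0.32 without batch 3 (adjusted p = 0.169), and 1.36 ± 0.18 on day 7 (adjusted p = 2.4e-06).

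Pkp3, which is found in most desmosomes, rose first. Krt8+/+ libraries held 27.4, 30.0 and 26.3 CPM on day 0, 88.3, 76.1 and 101 CPM on day 1, 57.0, 83.1 and 79.5 CPM on day 3, and 68.3, 68.5 and 41.0 CPM on day 7. Every culture library lay above every fresh one, and the highest mean was on day 1. The log2 difference from day 0 was 1.67 ± 0.22 on day 1 (edgeR adjusted p = 3.4e-06), 1.39 ± 0.22 on day 3 and 1.09 ± 0.22 on day 7 (adjusted p = 2.7e-04), and the difference between days 7 and 3 did not pass (-0.30 ± 0.22, adjusted p = 0.488). Krt8-/- means were 26.5 ± 0.120, 97.6 ± 5.38, 98.7 ± 16.9 and 63.1 ± 20.3 CPM (SD, n = 3), with -0.65 ± 0.22 log2 from day 3 to day 7 (edgeR adjusted p = 0.0598).

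The desmosomal cadherins, the adhesive part of the junction, had the largest rises after Pkp1. Dsg2, the desmoglein of simple epithelia, held 14.4, 12.9 and 4.98 CPM on day 0 in Krt8+/+ cells, 45.5, 40.8 and 14.1 CPM on day 1, 42.1, 77.8 and 39.1 CPM on day 3, and 98.7, 115 and 51.8 CPM on day 7. Batch 3 was the lowest on all 4 days, and through it day 1 overlapped day 0. The log2 difference was 1.62 ± 0.46 on day 1 (edgeR adjusted p = 0.00549), which did not pass without batch 1 (1.61, adjusted p = 0.0616), and 3.02 ± 0.47 on day 7 (adjusted p = 1.5e-05). Krt8-/- libraries went from 8.49, 12.3 and 12.9 CPM to 115, 178 and 58.7 CPM (3.39 ± 0.48 log2, edgeR adjusted p = 4.2e-06).

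Dsc2, the desmocollin of simple epithelia, was near the limit of detection in fresh cells. Krt8+/+ libraries held 7, 11 and 1 reads on day 0 (0.445, 1.19 and 0.111 CPM), and 4.33, 3.09 and 1.63 CPM on day 1, 4.13, 14.1 and 9.13 CPM on day 3, and 13.7, 21.8 and 13.1 CPM on day 7. The day 0 libraries lay below all others. The log2 difference was 2.38 ± 0.70 on day 1 (edgeR adjusted p = 0.00708), which did not pass without batch 1 (1.82, adjusted p = 0.129), and 4.81 ± 0.70 on day 7 (adjusted p = 5.8e-06). In Krt8-/- cells Dsc2 had 6, 23 and 3 reads on day 0, so that batch 2 gave 2.33 CPM against 0.432 and 0.232 CPM. By day 7 the Krt8-/- libraries stood at 19.6, 31.9 and 12.8 CPM, a log2 difference of 4.50 ± 0.66 (edgeR adjusted p = 6.6e-06).

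**Figure D2:**
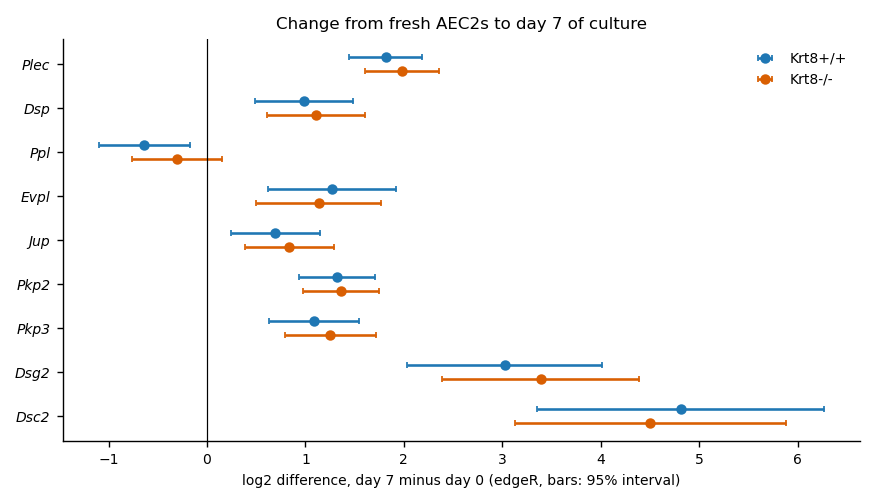
log2 difference between day 7 and day 0 for 9 genes in Krt8+/+ (blue) and Krt8-/- (orange) cells, with 95% intervals from edgeR. Pkp1 is left out since it had no read in fresh Krt8+/+ cells. Dsc2 (4.81 and 4.50) and Dsg2 (3.02 and 3.39) lie farthest to the right, and Ppl alone lies left of 0 (-0.64 and -0.30, the latter 0.12 when scaled by library totals).

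By day, the members called in Krt8+/+ cells against day 0 were 6 on day 1 (Plec, Dsp, Evpl, Pkp3, Dsg2 and Dsc2, all higher, against 54.7% of all genes called and 26.2% called higher) and 9 on day 3 (all but Ppl, all higher, against 54.0% and 26.1%). Without batch 1 the day 1 count was 3, where 8089 of 17989 genes were called. In Krt8-/- cells 8 were called on day 1 (all but Ppl and Evpl, against 50.6% called and 23.7% higher) and 9 on day 3 (all but Ppl, against 52.0% and 25.4%). Their day 1 count was 5 without batch 3, where 7411 of 18054 genes were called. The culture day 1 libraries of batch 2 had fewer AEC2 marker reads than the others, 15045 and 14167 CPM against 62879 to 87651 CPM over the 2 genotypes, and Dsp was highest and Ppl, Evpl, Jup, Pkp2 and Pkp3 lowest there in Krt8+/+ cells. The part of that difference in the day 1 results was not tested.

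Between neighbouring culture days fewer members moved. From day 1 to day 3, 5 rose in Krt8+/+ cells, against 26.3% of all genes called and 14.4% called higher: Pkp1 (7.18 ± 0.83 log2, from 6 reads), Dsc2 (1.60 ± 0.57), Evpl (1.05 ± 0.30), Pkp2 (0.69 ± 0.18) and Plec (0.49 ± 0.17). That count was 3, 1 and 3 without batches 1, 2 and 3. Those fits called 3085 of 17989, 2614 of 18523 and 2620 of 18054 genes, against 4740 of 18046 with all batches. Only Pkp1 was left without batch 2. In Krt8-/- cells Pkp1 and Evpl rose over the same step, against 23.6% of all genes called and 13.4% called higher. The count was 1 without batch 1, 2 or 3, where 1842, 2691 and 2040 genes were called, against 4252 with all batches. From day 3 to day 7, 0 members passed in Krt8+/+ cells by edgeR, against 6.58% of all genes. For 5 members, and for 3468 of all 18046 genes, edgeR gave an unadjusted p under 0.05 there. Plec, Pkp1 and Pkp2 had positive and Ppl and Evpl negative differences, and DESeq2 called 0 members. With the batch as a block, 1 passed, Pkp1 (1.40 log2, adjusted p = 0.0445). For Krt8-/- cells, Plec rose from day 3 to day 7 (0.66 ± 0.17 log2, edgeR adjusted p = 0.016), against 10.5% of all genes called and 4.40% called higher. Plec did not pass there without batch 1 (0.60, adjusted p = 0.1), batch 2 (0.79, adjusted p = 0.061) or batch 3 (0.58, adjusted p = 0.126). No other member passed without batch 1 or 2, and Pkp2 (0.74, adjusted p = 0.0342) and Dsg2 (1.28, adjusted p = 0.0269) did without batch 3.

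On day 7 batch 3 stood apart in both genotypes. In Krt8+/+ cells it held the lowest level of 8 members, all but Plec and Ppl, and in Krt8-/- cells that of 9, all but Plec, which was highest there. The fibroblast list stood at 1804 CPM in the Krt8+/+ library and 2977 CPM in the Krt8-/- library of batch 3, against 797 to 951 CPM in the other 4 day 7 libraries. Its part in the result was not tested. Without batch 3 the members called between days 7 and 0 numbered 10 in Krt8+/+ cells and 9 in Krt8-/- cells, as with it. Of all 18054 genes tested in those fits, 9362 and 9021 were called. Without batch 1 the calls of Ppl and Jup in Krt8+/+ cells and of Jup in Krt8-/- cells were lost. Without batch 2 the call of Ppl in Krt8+/+ cells was lost. Fresh libraries of batch 3 were the lowest for 7 members in each genotype.

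Levels of different genes were set side by side as CPM per kilobase of merged exons, with the longest transcript as a check. In fresh Krt8+/+ cells Jup led at 45.1 ± 2.3 (SD, n = 3), followed by Ppl at 19.7 ± 4.29, Pkp2 at 12.5 ± 1.13, Pkp3 at 7.72 ± 0.520, Plec at 4.52 ± 0.821, Dsp at 4.09 ± 0.155, Dsg2 at 1.3 ± 0.610, Evpl at 1.14 ± 0.230, Dsc2 at 0.110 ± 0.105 and Pkp1 at 0. Plec and Dsp overlapped, as did Dsg2 and Evpl, and the other neighbours in that order did not. By the longest transcript Pkp2 stood above Ppl.

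By day 7 the order in Krt8+/+ cells was Jup at 73.0 ± 13.3, Pkp2 at 31.2 ± 2.51, Pkp3 at 16.4 ± 4.37, Plec at 15.9 ± 0.226, Ppl at 12.7 ± 0.303, Pkp1 at 11.9 ± 7.59, Dsg2 at 10.7 ± 3.97, Dsp at 8.10 ± 1.68, Dsc2 at 3.08 ± 0.918 and Evpl at 2.75 ± 0.442 CPM per kilobase. Jup and Pkp2 stood clear of all genes below them. The libraries of Pkp3 and Plec overlapped, those from Ppl down to Dsp each overlapped their neighbour, and so did Dsc2 and Evpl. Ppl went from the second to the fifth place and Pkp1 from the last to the sixth (the seventh by the longest transcript).

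**Figure D3:**
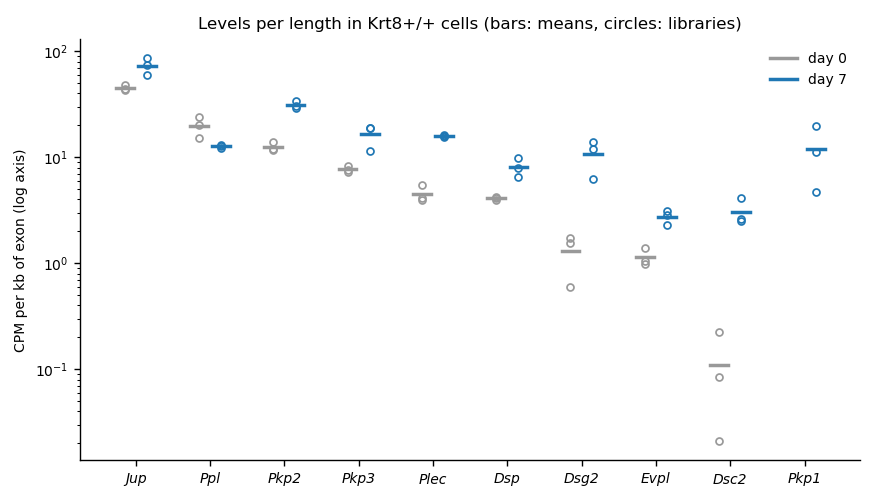
CPM per kilobase of exon on a log axis for the 10 genes in Krt8+/+ cells on day 0 (grey) and day 7 (blue), ordered by the day 0 mean. Circles are the 3 libraries and bars their mean, and Pkp1 has no day 0 point because it had no reads. Ppl is the only gene whose day 7 libraries lie below those of day 0, and Jup is highest on both days.

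Within each family the make-up of the mRNA pool shifted. Of the per-length CPM of the 3 plakophilins in Krt8+/+ cells, Pkp2 held 61.7% ± 0.625 (SD, n = 3) and Pkp3 the rest on day 0. On day 1 Pkp3 held 62.3% ± 3.27 and Pkp2 37.6% ± 3.26, or 52.9% and 47.1% by the longest transcript. In day 1 Krt8-/- cells Pkp3 and Pkp2 held 57.9% and 41.6%, but 48.4% and 51.3% by the longest transcript. Their order there rested on the length used. On day 3 of Krt8+/+ cells the shares of Pkp2, Pkp3 and Pkp1 were 48.9% ± 2.87, 41.7% ± 1.49 and 9.34% ± 4.34. On day 7 they were 53.8% ± 10.4, 27.3% ± 2.26 and 18.9% ± 9.28, with Pkp1 at 13.6% by the longest transcript. The share of Pkp2 on day 7 differed from day 0 by -7.92 percentage points (means of 53.8% and 61.7%), with libraries on both sides (43.8%, 53.0% and 64.6% against 61.2%, 62.4% and 61.6%; exact two-sided permutation p = 0.4), and by -3.19 points without batch 1. In Krt8-/- cells it differed by -10.5 points (means of 53.4% and 63.9%), lower in 3 of 3 batches and without overlap (exact two-sided permutation p = 0.1). The smallest p that 3 against 3 libraries allow is 0.1. The share of Pkp1 on day 7 was 28.8%, 17.5% and 10.4% in batches 1, 2 and 3 of Krt8+/+ cells and 22.1%, 17.1% and 19.2% in those of Krt8-/- cells, with overlapping groups.

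Among the plakins Ppl and Plec changed places in Krt8+/+ cells. In Krt8+/+ cells Ppl made up 66.5% ± 3.38 of the per-length CPM of the 4 plakins before culture, and 58.3% ± 8.57, 45.2% ± 0.293 and 32.2% ± 2.14 after 1, 3 and 7 days. Plec went from 15.4% ± 1.14 to 40.4% ± 2.05, Dsp from 14.2% ± 2.39 to 20.4% ± 3.37, and Evpl from 3.97% ± 0.985 to 6.97% ± 0.851, with 10.3% ± 2.57 on day 3. Each of these 4 shares moved without overlap between days 0 and 7 (exact permutation p = 0.1 for each, the smallest possible). A share within a family does not depend on the scaling between libraries. Krt8-/- means went from 64.1% Ppl and 15.5% Plec to 32.6% ± 5.15 and 40.0% ± 9.64 (SD, n = 3). On day 7 their batches 1, 2 and 3 held 32.8%, 37.6% and 27.3% Ppl and 36.7%, 32.4% and 50.8% Plec. Ppl thus stayed above Plec in batch 2.

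Of the 2 cadherins, Dsc2 made up 6.88% ± 5.04 of the per-length CPM in fresh Krt8+/+ cells and 23.1% ± 5.26 on day 7 (exact permutation p = 0.1), so that Dsg2 kept the larger part on every day. The mean share of Dsc2 in Krt8-/- cells went from 11.0% to 22.8%, and the high share of batch 2 on day 0, 22.9%, overlapped the 21.0% to 25.4% of day 7 (exact permutation p = 0.3).

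**Figure D4:**
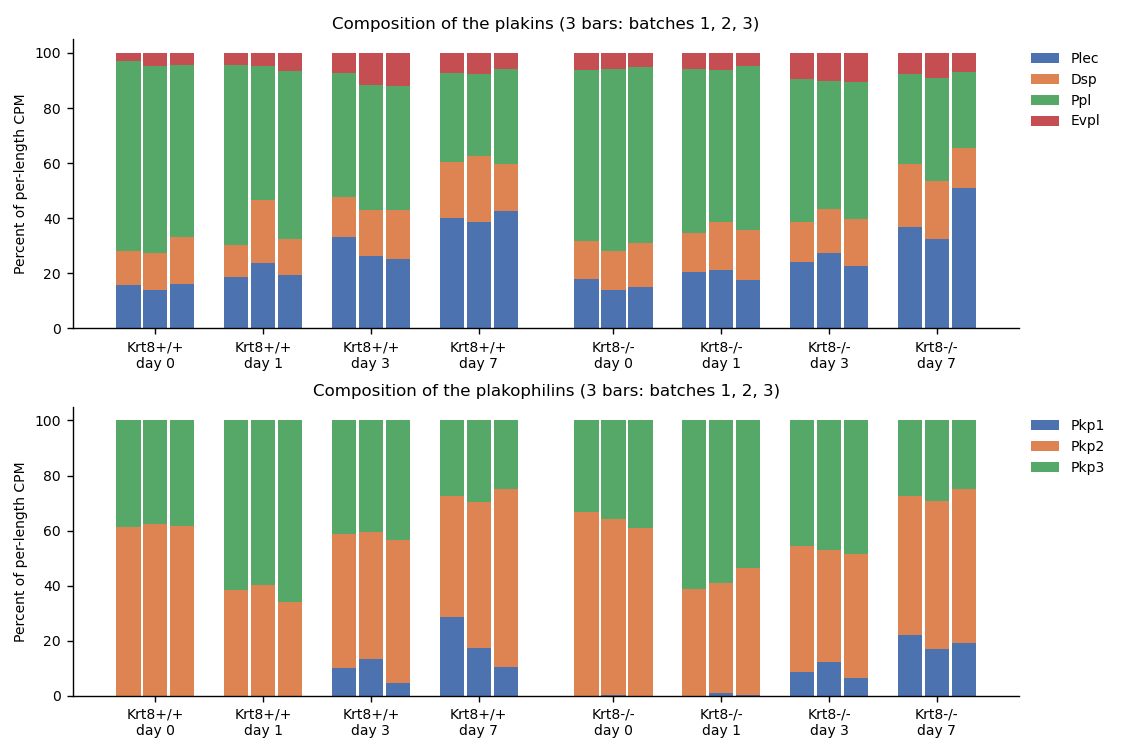
Share of each gene, in percent, in the summed CPM per kilobase of the 4 plakins (top) and the 3 plakophilins (bottom), with 1 bar per library and batches 1 to 3 side by side. Ppl (green, top) shrinks from 66.5% to 32.2% in Krt8+/+ cells while Plec (blue) grows from 15.4% to 40.4%, and Pkp1 (blue, bottom) is absent in fresh Krt8+/+ cells and holds 18.9% on day 7.

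Loss of keratin 8 left these genes without a call. None of the 10 passed the test between genotypes on day 0, 1, 3 or 7 or over the mean of days 1, 3 and 7 (edgeR adjusted p of 1 for each), where 0.0277%, 0.0166%, 0.0166%, 0.0166% and 0.0443% of all genes passed. At an unadjusted p under 0.05 by edgeR the counts were 0, 2, 0, 0 and 2, against 479, 638, 452, 255 and 660 of all 18046 genes. DESeq2 also called 0 members in each. The test of a genotype difference that varies with the day called 0 members and 0.00554% of all genes. At an unadjusted p under 0.05 that test gave 0 members and 268 of all 18046 genes. The count of members called stayed at 0 under every alternative run for these comparisons.

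Over days 1, 3 and 7 the Krt8-/- level was nominally higher for all 10 members, as it was for 50.1% of all genes. The median log2 difference of the members was 0.19, against 0.00 over all genes. Pkp1 stood at 1.05 ± 0.42 (95% interval 0.17 to 1.93, unadjusted p = 0.022 by edgeR), Dsc2 at 0.66 ± 0.32 (0.01 to 1.32, unadjusted p = 0.0478 by edgeR) and Dsg2 at 0.35 ± 0.25 (-0.17 to 0.87). Pkp3 at 0.22 ± 0.12 and Pkp2 at 0.21 ± 0.10 followed, and Jup, Ppl, Evpl, Dsp and Plec lay between 0.01 and 0.17. For Plec the 95% interval ran from -0.19 to 0.22, and for Dsp from -0.19 to 0.37, so that a change of 1 log2 unit in either lay outside it. Plec had the opposite sign (-0.0043) with DESeq2, and Plec (-0.04) and Dsp (-0.05) did without batch 1. In batch 1 the Krt8-/- libraries carried reads from Y-linked genes and the Krt8+/+ libraries did not, while in batches 2 and 3 the genotypes were alike in this. Its part in the genotype differences was not tested. Without batch 1 Pkp1 stood at 1.3 and Dsc2 at 0.63.

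**Figure D5:**
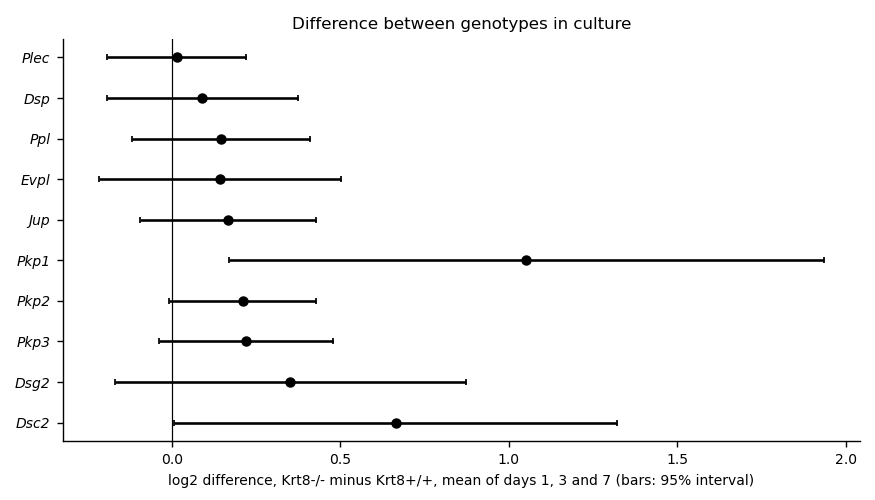
log2 difference between Krt8-/- and Krt8+/+ cells for the mean of days 1, 3 and 7, with 95% intervals from edgeR. All 10 points lie right of 0, between 0.01 for Plec and 1.05 for Pkp1, and the intervals of Pkp1 and Dsc2 do not reach 0, although none passed after adjustment over 18046 genes.

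The Pkp1 value came from day 1. There the Krt8-/- libraries held 2, 34 and 13 reads (0.179, 2.20 and 1.01 CPM) and the Krt8+/+ libraries 2 each (0.147, 0.167 and 0.136 CPM), a ratio of pooled levels of 8.35 (95% counting interval 3.57 to 23.9). Batch 1 gave almost the same level in both genotypes, and batch 2 held 34 of the 49 reads. The edgeR difference was 2.92 ± 1.02 log2 on day 1 (unadjusted p = 0.0098), 2.06 without batch 2 (unadjusted p = 0.144), and 0.18 ± 0.51 on day 3 and 0.05 ± 0.50 on day 7, with either sign on days 3 and 7 when 1 batch was left out. Pkp1, Pkp2 and Dsc2 did not overlap between genotypes on day 1, nor Pkp3 on day 3, where 5.79% and 11.0% of all genes did not overlap. On day 1 Pkp2 stood at 94.9, 91.6 and 129 CPM against 82.1, 76.2 and 77.5 CPM (0.42 ± 0.18 log2, unadjusted p = 0.0325 by edgeR), and without batch 3 the difference was 0.24 (unadjusted p = 0.213). Dsc2 stood there at 5.83, 6.74 and 6.54 CPM against 4.33, 3.09 and 1.63 CPM (1.08 ± 0.57 log2), and Pkp3 on day 3 at 90.7, 87.4 and 118 CPM against 57.0, 83.1 and 79.5 CPM (0.43 ± 0.22 log2). On days 0 and 7 no member was free of overlap, against 6.88% and 5.54% of all genes.

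The other genes of these junctions were counted from lists of named genes, chosen with earlier results of these data known. Of 9 desmosome genes outside the members, 3 were expressed enough to test, and 2 rose and 1 fell between day 0 and day 7 in Krt8+/+ cells. For this and the next lists the shares of all genes over the same days were 28.6% called higher and 30.2% called lower. Perp, a tetraspan membrane protein of desmosomes, rose from 87.2 ± 7.42 to 268 ± 105 CPM (1.62 ± 0.29 log2, edgeR adjusted p = 6.1e-05). Its rise was not steady, with means of 322 CPM on day 1 and 117 CPM on day 3. Dsg3, a desmoglein of stratified epithelia, rose from 0 reads to 93 reads over 3 libraries, or 2.40 ± 2.38 CPM, and Pkp4, which lies in several junction types, fell from 41.7 ± 6.07 to 11.0 ± 2.17 CPM (-1.92 ± 0.29 log2). Dsg1a, Dsg1b, Dsg1c, Dsg4, Dsc1 and Dsc3 did not pass the filter on low counts.

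Of 12 keratins tested, 8 rose and 2 fell between these days in Krt8+/+ cells, against 28.6% and 30.2% of all genes, with a median log2 difference of 3.33 (0 over all genes). Krt17, a keratin of stressed and basal-like epithelium, went from 19 to 2801 reads (6.95 ± 0.88 log2), Krt20 went from 0 to 251 reads, and Krt23 fell from 317 ± 30.6 to 5.17 ± 1.35 CPM. Krt15, a basal keratin, fell from 38 reads to 0. Krt8 was the only gene of these lists called between genotypes over days 1, 3 and 7.

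Hemidesmosome genes and other plakins gave 4 higher, 0 lower and 3 not called of 7, against the same 28.6% and 30.2%. Itgb4 and Itga6, the integrin pair that plectin binds, rose by 4.07 ± 0.45 and 2.28 ± 0.29 log2, Eppk1, a plakin with many repeats, by 1.79 ± 0.28 and the tetraspanin Cd151 by 1.00 ± 0.33 in Krt8+/+ cells. Adherens junction genes split, with 5 higher and 3 lower of 10, against 28.6% and 30.2% of all genes, and a median of 0.35. Cdh3 (2.55 ± 0.58), Vcl (2.39 ± 0.21), Ctnnd1 (2.01 ± 0.22) and Ctnna1 (1.11 ± 0.20) rose, a cadherin, vinculin and 2 catenins. The 3 that fell, named after their values were seen, were Ctnnb1 (beta-catenin, from 1554 to 830.0 CPM as means), Nectin2 (from 310.2 to 145 CPM) and Nectin1 (from 9.53 to 4.87 CPM).

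Of 10 cornified envelope genes that work with Evpl and Ppl in skin, 5 could be tested and 4 rose, where 28.6% of all genes did. Sprr1a, a precursor of the envelope, rose from 1.29 ± 0.618 to 261 ± 130 CPM (7.76 ± 0.86 log2), Scel by 5.21 ± 0.65, Ivl (involucrin) by 2.35 ± 0.56 and the crosslinking enzyme Tgm1 by 1.29 ± 0.34. Transcription factors tied to desmosome genes in other epithelia gave 1 higher, 6 lower and 3 not called of 10, against 28.6% higher and 30.2% lower of all genes, and a median of -1.03. Ovol1 (-2.73 ± 0.64), Elf3 (-2.35 ± 0.29), Grhl2 (-1.30 ± 0.27) and Ovol2 (-1.25 ± 0.32) fell between days 0 and 7 of Krt8+/+ cells. On day 1 against day 0 the same list gave 3 higher, 2 lower and 5 not called, with a median of 0.16. Of all genes 54.7% were called there and 26.2% called higher.

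Across the 8 group means of log2 CPM, Dsg2 and Dsc2 were the most alike pair of members (Pearson's r = 0.996), followed by Dsp and Dsg2 (0.991). Ppl had a negative r with every member but Pkp3 (0.370), from -0.560 with Pkp2 to -0.059 with Jup. Of all other genes at 10 CPM or more in a group mean, the closest to Plec was Vcl (0.998), the actin-binding protein vinculin, to Dsp Slc2a1 (0.996), to Ppl Tmem87a (0.984), to Evpl Cdc6 (0.983) and to Jup Eif2b2 (0.995). For Pkp1 it was Lgr6 (0.998), for Pkp2 Mcub (0.995), for Pkp3 Arhgap40 (0.994), for Dsg2 Bag2 (0.997) and for Dsc2 Plekha2 (0.993). These 8 points share 3 batches and a common course from fresh to cultured cells, over which 50.6% to 58.8% of all genes were called against day 0.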

How the data were processed

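RNA-Seq data were from 24 libraries of alveolar epithelial cells, with 3 batches for every genotype and day. The authors deposited raw counts per Ensembl gene, and the submitters' processing notes name cutadapt 2.3, STAR 2.7.8a, RSEM 1.3.3 and GRCm38, without stating which step gave the counts. RSEM can split reads between similar genes. The deposited values are whole numbers and were used unchanged. Symbols and exon lengths came from GENCODE M21 on GRCm38. The 5 reporter rows at 0 were left out.

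Counts were tested with edgeR 4.0.16 (R 4.3.3) in 1 model of 8 groups with 16 residual degrees of freedom, TMM factors, a filter on low counts (minimum count 10, minimum total 15) and Benjamini-Hochberg adjustment over all 18046 genes tested. CPM used TMM-scaled library sizes, and log2 CPM for likeness a prior count of 2. Depth limits precision mainly for Pkp1 and Dsc2 on day 0. Shares were compared by exact permutation tests (SciPy). DESeq2 1.42.0, other scalings, no filter, separate fits, the batch as a block and leaving out each batch were the alternatives. The mean of days 1, 3 and 7 weighted them equally. The fitting step was tested on simulated data.

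The labels give a batch that both genotypes and all days share, so batches pair the libraries. The correlation of same-numbered deviations ran from 0.057 to 0.548 between genotypes. Between the compared days of a genotype it ran from -0.035 to 0.383. Replicate libraries of a group differed by more than counting noise (chi-square per gene of 10.2 or more). The members and gene lists were chosen with earlier results of these data known. Of each list, up to 4 genes were named by the size of their day 7 change among those called in Krt8+/+ cells. They also had to reach 5 CPM in a group mean of either genotype on any day. Dsg3 reached that level only in day 7 Krt8-/- cells (6.85 CPM), and it also stands in the basal airway list.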

Additional observations from a re-analysis of the deposited data

How the results depend on the processing

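The differences from day 0 and the genotype differences over days 1, 3 and 7 of every member, and the single values given for other steps and days, were recomputed under other scalings, without the filter, with DESeq2, with separate fits, with the batch as a block, and without each batch. Of 718 values between days, 653 kept their direction and their side of the threshold, 41 no longer passed, 21 passed that had not, and 3 changed sign, and of 133 between genotypes 126 kept both and 7 changed sign. Without TMM factors Ppl stood at 0.55 (day 3 against day 0, Krt8+/+) and 0.12 (day 7 against day 0, Krt8-/-), where the main values were -0.05 and -0.30. Its Krt8+/+ day 3 value ranged from -0.18 to 0.28 over the 3 leave-one-out fits. Between genotypes over days 1, 3 and 7, Plec was -0.0043 with DESeq2 size factors and -0.0043 with the DESeq2 test, and the leave-one-out range was -0.036 to 0.050 for Plec and -0.054 to 0.24 for Dsp. For Pkp1 it spanned -0.036 to 0.54 (day 3 alone) and -0.12 to 0.40 (day 7 alone). The day 1 genotype differences of Plec (-0.03), Ppl (-0.01) and Evpl (0.06), not counted here, took either sign as well. The cause was not tested.

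Leaving out 1 batch, the members called ran from 3 to 6 (day 1 against day 0) in Krt8+/+ cells and from 5 to 6 in Krt8-/- cells, from 1 to 3 (day 3 against day 1, Krt8+/+), were 1 each time (day 3 against day 1, Krt8-/-) and ran from 0 to 2 (day 7 against day 3, Krt8-/-). In the same fits and order, all genes called ran from 7264 to 8195, 6720 to 7411, 2614 to 3085, 1842 to 2691 and 834 to 969. With all batches they numbered 9874, 9131, 4740, 4252 and 1903 of 18046. Between days 3 and 0, Krt8+/+ cells lost the call of Jup without batch 1 or 2 and that of Dsp without batch 2. Krt8-/- cells lost that of Dsp without batch 3. A fit with 2 batches has fewer samples. The fit of the compared groups alone called 2 (day 3 against day 1, Krt8+/+) and 2 (day 7 against day 3, Krt8-/-), library totals called 1 (day 7 against day 3, Krt8+/+) and 2 (the same step, Krt8-/-), and the DESeq2 test called 2 in that last step. In these 5 cases, in order, all genes called were 2879 of 16131, 1827 of 15400, 1358 and 2169 of 18046, and 2512 of 18041. The batch block called 1 member, Pkp1, and 1490 of 18046 genes between days 7 and 3 of Krt8+/+ cells. It changed no other count of members by over 1.5 times. The share of Pkp2 kept its direction under all alternatives (-13.4 to -3.19 percentage points). Depth limits Pkp1 on days 0 and 1 and Dsc2 on day 0. Leaving out a replicate from the shares leaves 2 libraries against 2, where no exact p under 0.05 can arise.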
